A study of Homo sapiens with 4 samples.

Results

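The cytosolic heat shock genes examined here were HSF1 and 9 chaperone or cochaperone genes that it is known to control: HSPA1A, HSPA1B, HSPA8, HSP90AA1, HSP90AB1, HSPH1, HSPB1, DNAJB1 and BAG3. They were found by gene name among the array probes that are not controls, which gave 10 genes of 27953 genes or unmatched identifiers and 17 of 34127 probes. AEG-1, also called LYRIC and encoded by MTDH, was knocked down in SAS cells, a tongue squamous cell carcinoma line, and the question was which transcripts differ after knockdown. SB cells carried a lentiviral pLKO.1 construct for LYRIC shRNA-B, and SCt cells carried the pLKO.1 control, which the labels call the vector and the methods call a scrambled shRNA. Both lines, called stable clones in the labels, were selected with puromycin (14 days at 2 μg/ml), so the comparison rests on 1 shRNA in 1 parental line, and no heat stress is named for either line. On each of the 4 arrays, labelled as biological replicates 1 to 4, 15 μg of SB RNA labelled with Alexa 647 (red) was hybridised with SCt RNA labelled with Alexa 555 (green). The dyes were not swapped on any array, so a difference between dyes and a difference between lines cannot be told apart for a single probe. The methods describe independent biological replicates for the in vitro comparisons in general but not how the cells of each array were grown. The spread between these arrays may therefore be partly technical. The p-values of limma, the main test, rest on that spread, but not on that of each probe alone. Its eBayes step draws the variance of a probe towards that of all probes, which gives the moderated standard errors below.

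Every value below is a log2 ratio of SB over SCt: above 0 is higher in SB cells, and 1 unit is a doubling of the ratio of intensities. MTDH, the target, was at -3.18, -3.01, -3.12 and -3.41 on arrays 1 to 4 (mean -3.18 ± 0.17 SD, n = 4; limma, adjusted p = 5.19e-10), so the arrays ran in the labelled direction. Between 84.7% and 90.3% of probes were well above background in a channel, and median raw intensities were 655 to 875 for SB and 362 to 588.5 for SCt. All 8 squamous epithelial markers looked for were detected, that is, well above background in red and in green on each array. So were 3 of 5 fibroblast, 4 of 4 leukocyte and 3 of 3 endothelial markers with a probe on the array, while COL3A1 and LUM were on none, so the detection flag did not separate cell types. In bulk RNA, fewer cells with a transcript and less of it per cell cannot be told apart.

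HSF1 is the transcription factor of the heat shock response. In resting cells it is held inactive in part by chaperones of the HSP70 and HSP90 families, and under proteotoxic stress it forms trimers and binds heat shock elements, which are inverted repeats of a short GAA unit, in front of chaperone genes. HSP70 proteins fold clients in a cycle driven by ATP, which J proteins such as DNAJB1 start and exchange factors such as HSPH1 and BAG3 reset. HSP90 acts later on kinases and receptors, and the small heat shock protein HSPB1 holds unfolded proteins without ATP. Carcinoma cells often express these genes strongly without any heat shock.

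Of the heat shock genes, the single call between SB and SCt cells was HSP90AA1, the stress-inducible cytosolic HSP90, at its brightest probe. All 17 probes were detected in both lines on each of the 4 arrays, and all passed the filter on dim probes. Mean ratios at the brightest probe of each gene ran from -0.21 for DNAJB1 to 0.52 for HSP90AA1. By these means 4 genes were higher in SB cells (HSP90AA1, HSPA8, HSP90AB1 and BAG3) and 6 were lower. At an adjusted p of 0.05 in limma, 1 of 10 genes was called, as higher, and none was called as lower. Of all 23484 genes tested, 3.51% were called, 1.26% as higher and 2.26% as lower, so 1 gene of 10 is a count too small to set apart from that share. At an unadjusted p of 0.05, 4 of the 10 genes passed, beside 18.1% of all genes. The median over the 10 genes was -0.061, beside 0.013 over all genes. By probe, 1 of 17 was called, beside 3.7% of all 28505 probes (1.32% higher and 2.38% lower), and 6 passed unadjusted, beside 18.7% of all probes.

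**Figure D1:**
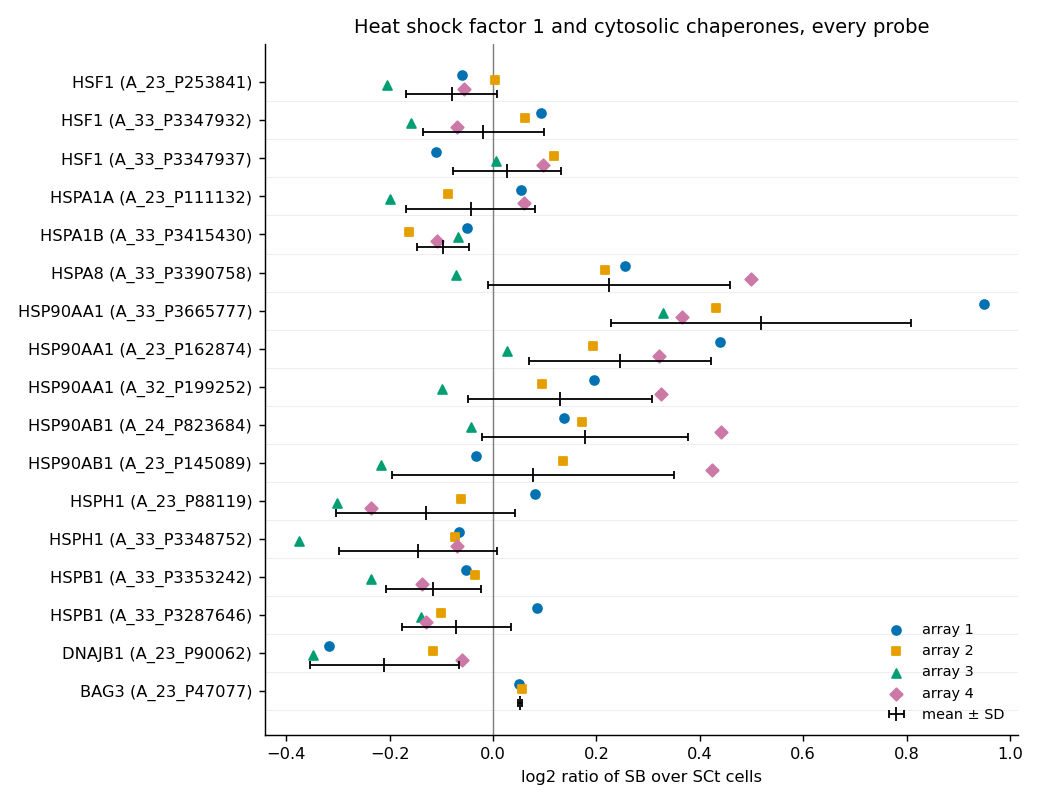
Log2 ratio of SB over SCt cells (horizontal axis) for each of the 17 probes (vertical axis, gene and probe name); coloured symbols are the 4 arrays, and the black bar under them is the mean ± SD. Only the first HSP90AA1 probe has all arrays above 0.3, and the green triangles of array 3 are the lowest value in 14 of the 16 probes measured on all arrays.

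For the genes with a match, the sequence in front of the start is shown first, since heat shock elements are what HSF1 binds. The genes were grouped by name and not by this sequence. RefSeq windows (GRCh38.p14, 250 bases before each annotated start) were given for 9 of the 10 genes, all but HSF1, 14 windows in all. They were searched on both strands for 3 units, spelled GAANNTTCNNGAA or TTCNNGAANNTTC, and for 2 units, spelled GAANNTTC or TTCNNGAA, which every 3-unit match also contains. Of all 35116 windows in the table, 0.441% held 3 units and 11.6% held 2 units. Of the 14 windows of the genes here, 3 held 3 units and 7 held 2 units. By gene, 3 held 3 units, each in 1 window (HSPA8, HSP90AA1 and HSP90AB1), and 7 held 2 units. HSPH1 and BAG3 had no match to these letters in their windows. A match is a run of letters and was not tested for binding by HSF1.

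The stretches around the matches follow, each with 20 bases on either side or up to the end of the window, 5′ to 3′ on the strand of the gene, with the matches in capitals. The first 3 are the genes with 3 units.
HSP90AA1, chr14:102087085-102087152, minus strand: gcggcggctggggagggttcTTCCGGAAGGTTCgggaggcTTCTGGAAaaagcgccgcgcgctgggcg
HSP90AB1, chr6:44247758-44247863, plus strand: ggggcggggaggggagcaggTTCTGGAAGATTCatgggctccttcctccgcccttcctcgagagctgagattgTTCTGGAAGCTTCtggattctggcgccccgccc
HSPA8, chr11:123062159-123062386, minus strand: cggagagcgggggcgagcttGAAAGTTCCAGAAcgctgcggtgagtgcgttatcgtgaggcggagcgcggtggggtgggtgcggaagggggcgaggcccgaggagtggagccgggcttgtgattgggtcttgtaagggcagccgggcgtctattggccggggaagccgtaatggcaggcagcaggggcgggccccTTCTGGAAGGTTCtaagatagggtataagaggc
The other 4 hold 2 units.
HSPA1A, chr6:31815417-31815464, plus strand: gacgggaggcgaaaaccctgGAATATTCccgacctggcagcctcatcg
HSPA1B, chr6:31827613-31827660, plus strand: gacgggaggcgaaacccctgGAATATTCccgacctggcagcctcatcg
HSPB1, chr7:76302471-76302518, plus strand: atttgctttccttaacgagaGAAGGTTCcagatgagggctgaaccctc
DNAJB1, chr19:14518417-14518494, minus strand: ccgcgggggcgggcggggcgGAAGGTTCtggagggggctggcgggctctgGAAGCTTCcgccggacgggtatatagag
The match nearest to a start began 47 bases before it in DNAJB1 and 50 bases before it in HSPA8. In HSP90AA1 the 3-unit match began 88 bases before the start, and a separate 2-unit match began 68 bases before it. HSP90AA1 has another annotated start, whose upstream window held no match, and neither did the other 2 windows of HSP90AB1 or the other 2 of DNAJB1.

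HSF1 itself did not pass the test at any of its 3 probes. At the brightest, A_23_P253841, the ratios were -0.060, 0.0031, -0.20 and -0.057 on arrays 1 to 4 (mean -0.080 ± 0.088 SD, n = 4; limma, adjusted p = 0.505). Array 3 was the lowest and array 2 lay at 0, and the 95% confidence interval of the mean ran from -0.21 to 0.047. At A_33_P3347932 the ratios were 0.093, 0.062, -0.16 and -0.070, 2 above and 2 below 0. At A_33_P3347937 they were -0.11, 0.12, 0.0057 and 0.097, with array 1 alone below 0. The 3 means were -0.080, -0.018 and 0.028, and no probe's interval went past a fall of 0.21 or a rise of 0.16. Raw intensities of the brightest HSF1 probe were 34950 to 47849 for SB and 17955 to 30247 for SCt. For bright spots the scanner software scales up values read at low gain, which held here for SB on 4 arrays and for SCt on 3.

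The inducible HSP70 genes, HSPA1A and HSPA1B, lie next to each other and encode nearly the same chaperone. In the windows above, 235 of 249 compared positions (94.4%) were identical at a shift of 1 base, and whether either probe also binds the transcript of the other gene was not tested. HSPA1A, measured by 10 spots per array, was at 0.055, -0.087, -0.20 and 0.059 (mean -0.043 ± 0.12 SD, n = 4; limma, adjusted p = 0.764). The SD between its spots on 1 array was 0.021 to 0.050, below the SD between arrays. HSPA1B was at -0.050, -0.16, -0.068 and -0.11 (mean -0.097 ± 0.050 SD, n = 4; limma, adjusted p = 0.375). It was below 0 on 4 of 4 arrays. The difference between HSPA1A and HSPA1B was 0.054 ± 0.13 (SD), positive on 3 of 4 arrays (exact sign-flip test, p = 0.5, where 4 arrays allow none under 0.125). The intervals of the means were -0.18 to 0.092 for HSPA1A and -0.22 to 0.023 for HSPA1B.

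HSPA8, the constitutive HSP70 that carries most of the folding load in resting cells, was at 0.26, 0.22, -0.072 and 0.50 on arrays 1 to 4 (mean 0.22 ± 0.23 SD, n = 4). It was higher in SB cells on arrays 1, 2 and 4 and lower on array 3. The adjusted p in limma was 0.153. The 95% interval of the mean, before any adjustment for the number of probes, ran from 0.050 to 0.40. It used the moderated standard error of 0.080, smaller than the SD of this probe alone would give. DNAJB1, the J protein that delivers clients to HSP70, had the lowest mean of the group. It was at -0.32, -0.12, -0.35 and -0.060 (mean -0.21 ± 0.14 SD, n = 4), below 0 on 4 of 4 arrays. The fold of SB over SCt was 0.864 (95% interval 0.784 to 0.953), and the adjusted p in limma was 0.101. Without array 4 its mean was -0.26 and the adjusted p 0.0190, a call that the 4 arrays together did not give. Without that array 6.63% of all genes were called, beside 3.51% with all 4.

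HSP90AA1 had 3 probes, and they did not give the same size. The brightest, A_33_P3665777, was at 0.95, 0.43, 0.33 and 0.37 on arrays 1 to 4 (mean 0.52 ± 0.29 SD, n = 4; limma, adjusted p = 0.00967), a fold of 1.43 (95% interval 1.25 to 1.64). As for HSPA8, the moderated standard error (0.091, log2) behind this interval was smaller than the SD of the probe alone would give. All 4 arrays were above 0, and array 1 stood apart from the other three. The raw SB intensities of this probe were 199916, 170406, 206011 and 152415, and those of SCt were 39027, 64869, 78455 and 64217. Raw here means before background correction and normalization: all of these were read at low gain and scaled up by the scanner software. Array 1 thus had the lowest raw SCt intensity, while its raw SB intensity lay within the range of the other arrays. Low raw SCt intensity was not particular to this probe: the median over all probes was 362 on array 1 and 400.75 to 588.5 on the others. After loess and Aquantile scaling, the log2 SB level of this probe was highest on array 1 (17.05, beside 16.78 to 17.04). Its SCt level was lowest there (16.10, beside 16.41 to 16.71). The second probe, A_23_P162874, is spotted 10 times on each array and is annotated to NM_005348, where the other 2 probes carry NM_001017963. It was at 0.44, 0.19, 0.027 and 0.32 (mean 0.25 ± 0.18 SD, n = 4; limma, adjusted p = 0.0793), above 0 on 4 of 4 arrays. The SD between its spots on 1 array was 0.019 to 0.044. The third, A_32_P199252, was at 0.20, 0.095, -0.098 and 0.33 (mean 0.13 ± 0.18 SD, n = 4; limma, adjusted p = 0.352).

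The brightest HSP90AA1 probe was above the other 2 on every array. Its mean difference was 0.27 ± 0.19 (SD) from A_23_P162874 and 0.39 ± 0.29 (SD) from A_32_P199252, and each exact sign-flip test gave p = 0.125, the smallest that 4 arrays allow. Adjusted by Benjamini-Hochberg over the 11 pairs of probes compared, the p was 0.393 for both. With the mean over its 3 probes in place of the brightest, the HSP90AA1 ratio was 0.30 (limma, adjusted p = 0.0457). Without array 3, on which the ratio of the brightest probe was lowest, the mean rose to 0.58 and the adjusted p was 0.0797.

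HSP90AB1, the constitutive HSP90, was not called at either probe. A_24_P823684, the brighter, was at 0.14, 0.17, -0.042 and 0.44 (mean 0.18 ± 0.20 SD, n = 4; limma, adjusted p = 0.219). A_23_P145089 was at -0.032, 0.13, -0.22 and 0.42 (mean 0.077 ± 0.27 SD, n = 4; limma, adjusted p = 0.692). Both probes were lowest on array 3 and highest on array 4, as was HSPA8. The difference between HSP90AA1 and HSP90AB1 at their brightest probes was 0.34 ± 0.37 (SD), positive on 3 of 4 arrays (exact sign-flip test, p = 0.25, where the smallest possible is 0.125).

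The heat shock probes with the highest ratios were among the brightest on the array, where the ratios of probes in general were high. At a mean log2 intensity of 16 or more, where 165 of the 28505 probes lay, the median ratio was 0.225 and 34.5% were called as higher. From 14 to 15, the median was -0.017 and 1.13% were called as higher. The 3 heat shock probes at 16 or more were HSPA8 (0.22) and 2 of HSP90AA1 (0.25 and 0.52), so the first 2 of these were close to the median of probes as bright as they were. Of the 165 probes, 14, the HSP90AA1 probe included, had a ratio of 0.52 or more. The scanner software took bright spots from a scan at low gain and scaled them up: this held in both channels on all arrays for 558 probes, of which 12.2% were called as higher, and for 5 heat shock probes (HSPA8, both HSP90AB1 probes and the 2 brighter HSP90AA1 probes). What part brightness or the scaling had in the HSP90AA1 call was not tested.

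**Figure D2:**
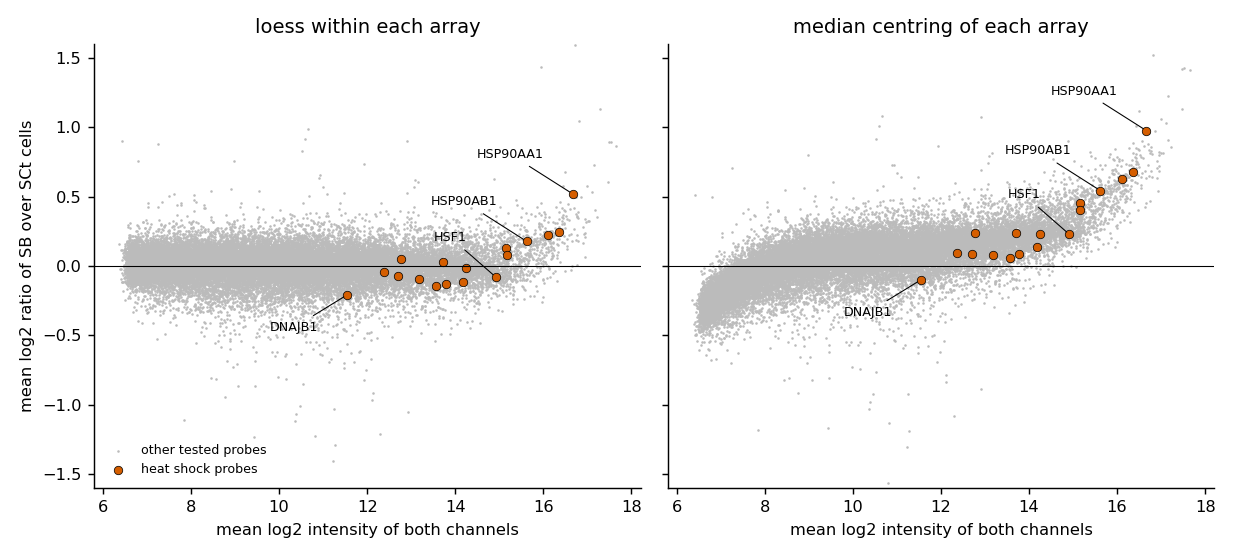
Mean log2 ratio of SB over SCt cells (vertical axis, cut at ±1.6) against the mean log2 intensity of both channels after background correction (horizontal axis), for all 28505 tested probes (grey) and the 17 heat shock probes (orange), after loess in the left panel and after median centring in the right panel. At 16 or more the grey points rise above 0 even after loess, to a median of 0.225, and to 0.645 after median centring; the brightest HSP90AA1 probe is at 0.52 and 0.98.

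The calls among the heat shock genes changed with the scaling. Median centring, which sets 1 number per array and leaves the slope with intensity in place, called 4 of the 10 genes as higher: HSF1 (0.23), HSPA8 (0.63), HSP90AA1 (0.98) and HSP90AB1 (0.54). Under it 9 of the 10 means were above 0 and HSF1 turned from below 0 to above it, but 31.9% of all genes were called. The median ratio of all probes at a mean log2 intensity of 14 to 15, where this HSF1 probe lay, was then 0.249. It was 0.399 from 15 to 16, where HSP90AB1 lay, and 0.645 at 16 or more, where HSPA8 and HSP90AA1 lay. HSF1 and HSPA8 were thus close to the median of probes as bright as they were. With the scanner software's own ratios, and with the authors' series table, none was called, and HSP90AA1 was at 0.35 in both (limma, adjusted p = 0.114 and 0.121). The methods' t-test on the loess ratios, used there without adjustment, passed HSP90AA1, HSPA1B and BAG3 (BAG3 on 2 arrays), beside 13.7% of all genes. After Benjamini-Hochberg adjustment it called no probe on the array, MTDH included, and so says nothing about the heat shock genes. DNAJB1 was the only gene of the 10 that was below 0 under all 17 alternatives, and HSPA8, HSP90AA1 and HSP90AB1 were above 0 under all 17, as was BAG3 under the 15 that gave it a value. Of the 17, Aquantile scaling of intensities between arrays leaves every ratio unchanged, so it could only repeat the reported results.

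**Figure D3:**
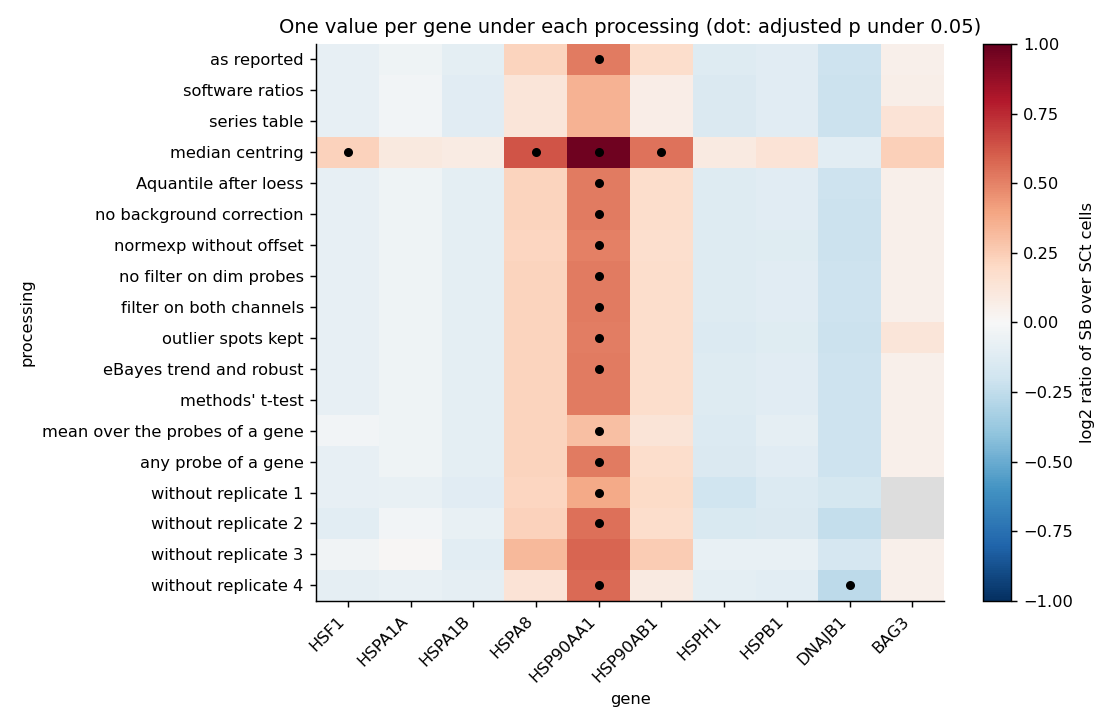
Log2 ratio of SB over SCt cells (colour scale from -1 to 1) for each of the 10 genes (horizontal axis) under each way of processing (vertical axis); a dot marks an adjusted p under 0.05, and grey marks BAG3 where a single array was left. HSP90AA1 carries a dot in 13 of the 17 alternatives, and median centring has a dot for 4 genes. The 13 include Aquantile after loess, which leaves ratios unchanged, and any probe of a gene, which gave the same HSP90AA1 value.

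HSPH1, HSPB1 and BAG3 gave no call. HSPH1, an HSP110 protein that exchanges nucleotide on HSP70, was at 0.081, -0.062, -0.30 and -0.24 at A_23_P88119 (mean -0.13 ± 0.17 SD, n = 4; limma, adjusted p = 0.345). At A_33_P3348752 it was at -0.066, -0.073, -0.38 and -0.070 (mean -0.15 ± 0.15 SD, n = 4; limma, adjusted p = 0.261). The second probe was below 0 on 4 of 4 arrays, with array 3 far below the other three. HSPB1, a small heat shock protein abundant in epithelial cells, was at -0.053, -0.035, -0.24 and -0.14 at its brighter probe (mean -0.12 ± 0.092 SD, n = 4; limma, adjusted p = 0.318). It was below 0 on every array there, and on 3 of 4 at the other probe, A_33_P3287646 (mean -0.071 ± 0.11 SD, n = 4). BAG3 couples HSP70 to small heat shock proteins and to autophagy. Its spots were marked as outliers and dropped on arrays 3 and 4, so its mean of 0.053 rested on 0.050 and 0.055 from arrays 1 and 2 (limma, adjusted p = 0.790). With the outlier spots kept, BAG3 was at 0.045, 0.054, 0.20 and 0.17 (mean 0.12 ± 0.080 SD, n = 4; limma, adjusted p = 0.294), above 0 on 4 of 4 arrays.

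Array 3 gave the lowest ratio for most of these genes. Of the 9 genes measured on all arrays, 8 were lowest on array 3, the exception being HSPA1B, which was lowest on array 2. Over all genes the share lowest on array 3 was 24.7%, and over the probes read at low gain in both channels it was 28.8%. By array, the median over the heat shock genes was 0.052, -0.016, -0.20 and -0.057, while the median over all genes stayed between 0.0028 and 0.025. At the probe level, 6 of the 16 probes measured on all arrays had the same sign on all 4 (37.5%, 2 above and 4 below 0), beside 26.8% of all such probes. Why array 3 stood lower was not tested, and no label tells it from the others.

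The rest of the chaperone network was described through 9 lists of 75 genes, of which 72 were on the array and 69 passed the filter. None was called as higher and 4 as lower (5.80%, beside 3.51% of all genes in both directions and 2.26% as lower), and the median of the 69 genes was -0.033. The largest fall in these lists was that of PPID, cyclophilin 40, an HSP90 cochaperone with peptidyl-prolyl isomerase activity. It was at -0.35, -0.26, -0.49 and -0.37 (mean -0.37 ± 0.096 SD, n = 4; limma, adjusted p = 0.00588), well below 0 on all 4 arrays. It was called under 15 of 17 alternatives, and without array 3 it was at -0.33 with an adjusted p of 0.0661. None of the other 10 HSP90 cochaperones tested was called, and 9 of the 11 were below 0, with a median of -0.093. The median of the means over all genes was 0.013. On single arrays, which is another measure, 46.4% to 49.7% of all probes were below 0. Of these 11 genes, 10 were lowest on array 3.

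Of 10 J proteins, which stimulate the ATPase of HSP70, 2 were called as lower, beside 2.26% of all genes. A mean below 0 was found for 8 of them, while the median of the means over all genes was 0.013. On single arrays, which is another measure, 46.4% to 49.7% of all probes were below 0. DNAJB6, known for holding back aggregation of polyglutamine proteins, was at -0.12, -0.20, -0.41 and -0.35 (mean -0.27 ± 0.14 SD, n = 4; limma, adjusted p = 0.0394) at its brightest probe. Its other 2 probes, A_23_P215227 (-0.15 ± 0.11 SD, n = 4) and A_23_P385063 (-0.064 ± 0.14 SD, n = 4, above 0 on array 4), were not called (limma, adjusted p = 0.208 and 0.647), and the mean over the 3 was -0.16 (limma, adjusted p = 0.163). DNAJA1 was at -0.12, -0.22, -0.31 and -0.28 (mean -0.23 ± 0.083 SD, n = 4; limma, adjusted p = 0.0477). Both were below 0 on every array at the brightest probe, and both lost the call in most alternatives: DNAJB6 kept it under 8 of 17 and DNAJA1 under 5, and median centring put DNAJA1 at 0.018. Of 8 chaperones of the endoplasmic reticulum, 1 was called as lower: DNAJB11, a J protein partner of HSPA5 in the lumen. It was at -0.14, -0.28, -0.48 and -0.36 (mean -0.31 ± 0.14 SD, n = 4; limma, adjusted p = 0.0208) and kept the call under 11 of 17 alternatives, while without array 2 or array 3 it was lost (adjusted p = 0.0800 and 0.157).

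The other lists gave no call. The transcription factor list had 5 tested genes, of which HSF2, a relative of HSF1 that can form mixed trimers with it, was at -0.19 ± 0.095 (SD, n = 4; limma, adjusted p = 0.0965). Among the other cytosolic HSP70 and HSP110 genes (6 tested), HSPA6, which is strictly heat-inducible, was at 0.082 ± 0.12 (SD, n = 4; limma, adjusted p = 0.518). The 8 subunits of the chaperonin TRiC, which folds actin and tubulin, had a median of -0.086, and CCT5 was the lowest at -0.24 ± 0.22 (SD, n = 4; limma, adjusted p = 0.121). The 8 HSP70 cofactors had a median of 0.0047 and the 7 mitochondrial chaperones 0.00031, with HSPD1, the mitochondrial HSP60, at 0.16 ± 0.12 (SD, n = 4; limma, adjusted p = 0.190). Small heat shock proteins other than HSPB1 (6 tested) had a median of 0.059, with 5 means above 0. The 1 below 0 was CRYAB, at -0.067 ± 0.15 (SD, n = 4; limma, adjusted p = 0.639). The low values on array 3 extended to several lists: all 8 TRiC subunits were lowest there, as were 10 of 11 HSP90 cochaperones and 5 of 6 other HSP70 and HSP110 genes, but none of the 6 small heat shock proteins. Over the 9 lists together, 44 of 69 genes (63.8%) were lowest on array 3, beside 24.7% of all genes.

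**Figure D4:**
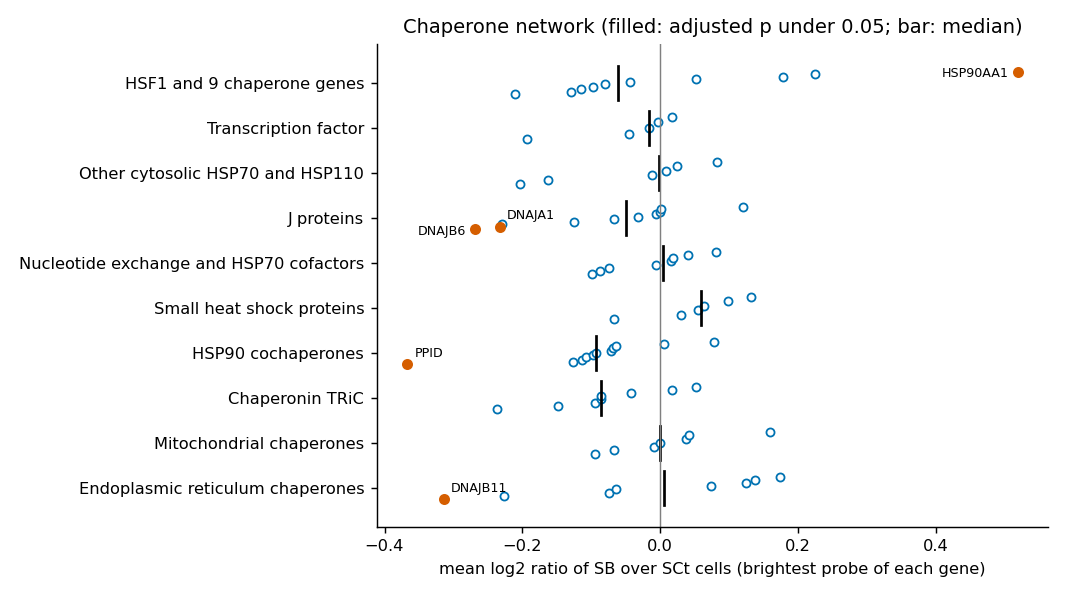
Mean log2 ratio of SB over SCt cells at the brightest probe of each tested gene (horizontal axis), for HSF1 with its 9 chaperone genes and for the 9 lists of the chaperone network (vertical axis); each point is a gene, filled orange where its adjusted p is under 0.05, and the black bar is the median. The called genes are HSP90AA1 at 0.52 and PPID, DNAJB11, DNAJB6 and DNAJA1 between -0.37 and -0.23.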

How the data were processed

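RNA of SB and SCt cells was compared on 4 dual-colour Agilent human 44K arrays, on 1 slide and in 1 scan. That scan included a reading at low gain for bright spots. For each array the authors deposited the output of Agilent Feature Extraction 10.5.1.1: red and green median intensities with a local background, not normalized, and the software's dye-normalized ratio on a log10 scale. A series table on a log2 scale was deposited as well. The number of arrays limits the precision.

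In R 4.3.3 with limma 3.58.1, the intensities were corrected by normexp (offset 50) and normalized by loess within each array. The 1377 control spots and spots marked as outliers (1.89% to 2.71% per array) had weight 0 and were then left out, and spots of a probe were averaged. No spot was saturated. Kept probes (28505) were those flagged as above background in red on all 4 arrays, or in green on all 4, with values on at least 2. Mean ratios were tested against 0 with lmFit and eBayes and adjusted over these probes by Benjamini-Hochberg. A gene was represented by its brightest kept probe. Probes were named through RefSeq accessions (24826 of 34127 matched). The steps were tested on simulated arrays. The 17 alternatives covered normalization, background, filters, test, probe choice and leaving out each array. Genes named from the lists were those called with 1 sign on all arrays, otherwise 1 or 2 per list, not called. The genes and lists were chosen with earlier results of these data known.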

Additional observations from a re-analysis of the deposited data

Results flagged for a closer look

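Of the 28 named probes of heat shock genes, MTDH and other chaperone genes with values on all arrays, 2 had an array far from the others: its gap to the nearest other array, over the whole range, was above Dixon's 95% critical value, which chance alone gives in about 5% of probes. For HSP90AA1 at A_33_P3665777 this was array 1, at 0.95 against 0.33 to 0.43 on the other three (gap over range 0.836). Without array 1 the mean was 0.38 and the probe was still called (limma, adjusted p = 0.0169). For HSPH1 at A_33_P3348752 it was array 3, at -0.38 against -0.073 to -0.066 (gap over range 0.979). The cause was not tested for either.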

How the results depend on the processing

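Results were recomputed under 17 alternatives, 1 of them (any probe of a gene) chosen after seeing the data. Aquantile scaling after loess leaves every ratio unchanged, so its results were bound to equal those reported. Taking any probe of a gene left HSP90AA1, PPID, DNAJB6, DNAJB11 and DNAJA1 at the same values. Counts of alternatives in the text include both. The number of heat shock genes called (1) was 0 with the software ratios, the series table and the methods' t-test, and 4 with median centring. It ranged from 0 to 2 when 1 array was left out, with 0 without array 3. The number of all probes called (1055) was 698 with the series table, 8937 with median centring (5599 higher and 3338 lower), 579 with trend and robust options and 0 with the methods' t-test, where 3936 probes passed unadjusted. It ranged from 204 without array 3 to 1991 without array 4, with 640 without array 1 and 431 without array 2. The chaperone list genes called (4) were 1 with the software ratios and with the series table, 22 with median centring (20 higher, 2 lower), 2 with normexp without an offset and with trend and robust options, 0 with the methods' t-test, and 0 (without array 3) to 5 when 1 array was left out, with 1 without array 2. MTDH stayed between -3.24 and -3.06 under all alternatives, and only the methods' t-test did not call it (-3.18, adjusted p = 0.143).

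Median centring turned these means above 0: HSF1 (0.23, and 0.23 at A_33_P3347932, both called), HSPA1A (0.094), HSPA1B (0.080), HSPH1 (0.087, and 0.058 at A_33_P3348752), HSPB1 (0.13, and 0.087 at A_33_P3287646) and DNAJA1 (0.018). Leaving out 1 array gave a range across 0 for HSPA1A (-0.077 to 0.0090, above 0 without array 3), HSF1 at A_33_P3347932 (-0.056 to 0.028, above 0 without array 3), HSF1 at A_33_P3347937 (-0.0026 to 0.074, below 0 without array 2) and HSP90AB1 at A_23_P145089 (-0.038 to 0.18, below 0 without array 4). Of all results under alternatives, 332 kept direction and side of the threshold, 12 gained and 50 lost a call or count, and 13 changed sign, with causes not tested. The 332 include all results of Aquantile scaling, which could not differ. No slide or scan block could be fitted because all arrays share both. No paired analysis was possible because each array already holds both lines and its ratio is 1 value of 1 group.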
